A study of Mus musculus with 10 samples.

Results

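The 40 germline and meiosis genes described here encode proteins of the piRNA pathway, the synaptonemal complex, meiotic cohesin, meiotic recombination and germ cell regulation. They were chosen by name, and all 40 were found among the 21883 protein-coding genes of a RefSeq table (GRCm38.p6, the same assembly as mm10). The data are lists of ChIP-seq peaks, which are places where an immunoprecipitation recovered more DNA than its control track, in mouse embryonic stem (ES) cells. The culture medium held serum, LIF, a GSK-3 inhibitor and a MEK1 inhibitor. A rabbit polyclonal antibody to N-terminal TET2 was used on untagged Tet2fl/fl cells (wild-type) and on Tet2-/- cells (knockout). FLAG M2 affinity gel was used on Tet2fl/fl cells whose endogenous TET2 carries a 2x-Flag tag (FLAG-TET2) and on untagged Tet2fl/fl cells (parental). Each of these 4 groups had 2 libraries with 1 peak list each, and an input and an IgG library were not analysed here. Wild-type and FLAG-TET2 lists are called target lists, and the lists from cells without the epitope (knockout and parental) control lists.

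The lists held between 2261 peaks (knockout replicate 1) and 63612 peaks (FLAG-TET2 replicate 1), and the replicates of each group differed widely in length. The sequencing depth behind a list is unknown here. The labels do not say whether replicates came from separate cultures or clones, so what separates them may be technical only. The files hold binding and no expression, so neither the cell type nor the Tet2 deletion can be checked with them. Peaks that overlapped by 1 bp or more in any lists were joined into 1 merged region, and a merged region was given to the gene whose span it overlapped or, within 50 kb, was nearest to. This gave the 40 genes 106 of 79350 merged regions, and each gene at least 1, as 78.4% of all genes had. Where a gene starts was taken from a RefSeq promoter table of the same assembly, which holds 35 of the 40 genes and 17491 genes in all. A start peak is a peak within 1 kb of such a start.

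As background, germline genes are silent in most cells outside the germline. Many have promoters rich in CpG dinucleotides, and methylation of these cytosines by DNA methyltransferases keeps them off. TET enzymes oxidise methylated cytosine, which can lead to its loss. In ES cells a variant Polycomb complex that contains MGA, MAX, L3MBTL2, PCGF6 and E2F6 also represses germline genes. MGA and MAX bind the E-box CACGTG, and E2F6 binds sites of the E2F type.

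The starts of these genes carried peaks of the TET2 antibody in wild-type and in Tet2 knockout cells, at shares above those of all genes. Peaks of the FLAG resin lay there at shares close to all genes in the first replicates and below them in the second. A start peak was present in both knockout lists at 20 of the 35 genes (57.1%), against 5.47% of all 17491 genes. At least 1 target list had a start peak at 33 of the 35 genes, against 59.8% of all genes, and no list had one at Piwil1 and Dpep3, against 38.9% of all genes. A start peak was present in both wild-type lists at 24 genes (68.6%, against 35.1% of all genes) and in both FLAG-TET2 lists at 5 (14.3%, against 38.6%). The last count rests on FLAG-TET2 replicate 2, without which it is 18 of 35, against 54.9% of all genes. Both parental lists had a start peak at 1 gene, Tex19.1 (2.86%, against 19.6%), and at least 1 parental list at 15 (42.9%, against 46.2%). With peaks within 1 kb of either end of the gene span counted instead, which takes in all 40 genes, both knockout lists had one at 19 (against 5.23% of all 21883 genes) and all 4 TET2-antibody lists at 18 (against 4.91%). The members were picked with earlier results of these data known, so these shares are given as a description, without a test.

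List by list, wild-type replicates 1 and 2 had a start peak at 31 and 25 of the 35 genes and knockout replicates 1 and 2 at 20 and 29. FLAG-TET2 replicates 1 and 2 had one at 18 and 5, and parental replicates at 15 and 1. The wild-type and knockout counts overlapped, and so did the FLAG-TET2 and parental counts. Over all genes the wild-type shares were 53.2% and 35.5%, the knockout shares 5.48% and 22.7%, the FLAG-TET2 shares 54.9% and 38.8% and the parental shares 46.1% and 19.7%. In knockout replicate 1, the shortest list, 23 of its 2259 peaks on assembled chromosomes lay at these starts. That is 10.2 per 1000 peaks, against 2.48 in knockout replicate 2, 0.830 and 1.54 in wild-type and at most 0.520 in any FLAG-resin list.

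**Figure D1:**
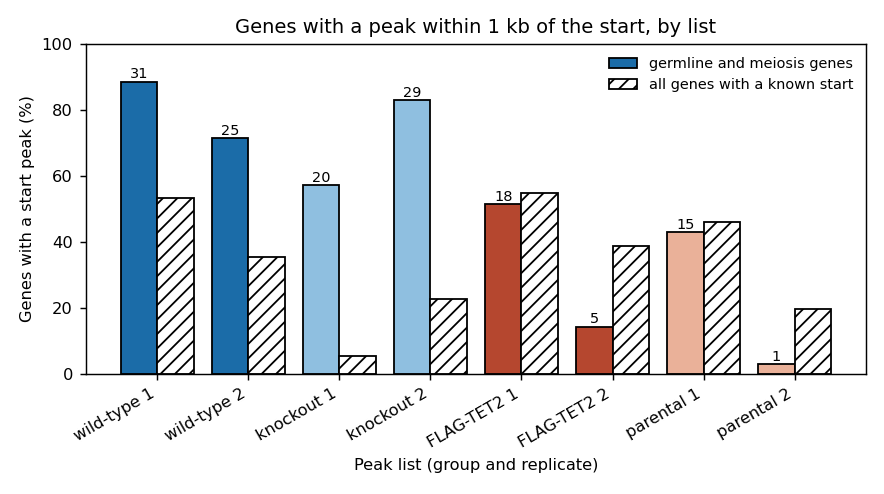
Percentage of genes with a peak within 1 kb of the start (y axis) in each of the 8 lists (x axis). Filled bars are the 35 germline and meiosis genes, with their number above, and hatched bars all 17491 genes with a known start; the filled bar stands far above the hatched one in both knockout lists (20 and 29 genes) and below it in FLAG-TET2 replicate 2 and parental replicate 2 (5 and 1 genes).

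Of the 24 genes with a start peak in both wild-type lists, 23 (95.8%) also had one in at least 1 knockout list, where the share over all genes was 48.7%. The exception was Tex14, a protein of the bridges between germ cells. Tex14 was the only one of the 35 genes that the wild-type lists shared and both knockout lists lacked, a pattern found at 18.0% of all genes. Of the 24 genes, 5 had a start peak in each FLAG-TET2 list, against 77.0% over all genes. No member had a start peak that both FLAG-TET2 lists held and both parental lists lacked, as 2.64% of all genes had. The series defines TET2 sites by enrichment over the controls. By presence of a peak, 0 of the 35 starts were held by all 4 target lists and lacked by all control lists, as were 0.960% of the starts of all genes. Whether wild-type signal exceeded knockout signal at them cannot be told from peak lists.

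All 4 TET2-antibody lists had a start peak at 19 genes (54.3%, against 5.14% of all genes). At 4 of these, Tdrd1, Mov10l1, Sycp2 and Syce1, no FLAG-resin list had one. This pattern was found at 91 of all genes (0.520%). It was singled out after the values were seen. With them, 15 of the 19 genes lacked a start peak in at least 1 FLAG-TET2 list (42.9% of the 35, against 2.25% of all genes). The remaining 4 were Tdrkh, Tex19.1, Msh4 and Stk31. Of the 20 genes with a start peak in both knockout lists, these 4 had one in each FLAG-TET2 list, against 53.7% of all such genes, and 5 had none in any FLAG-resin list, against 12.2%. The 5 were Tdrd9 and the 4 genes with antibody peaks alone.

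**Figure D2:**
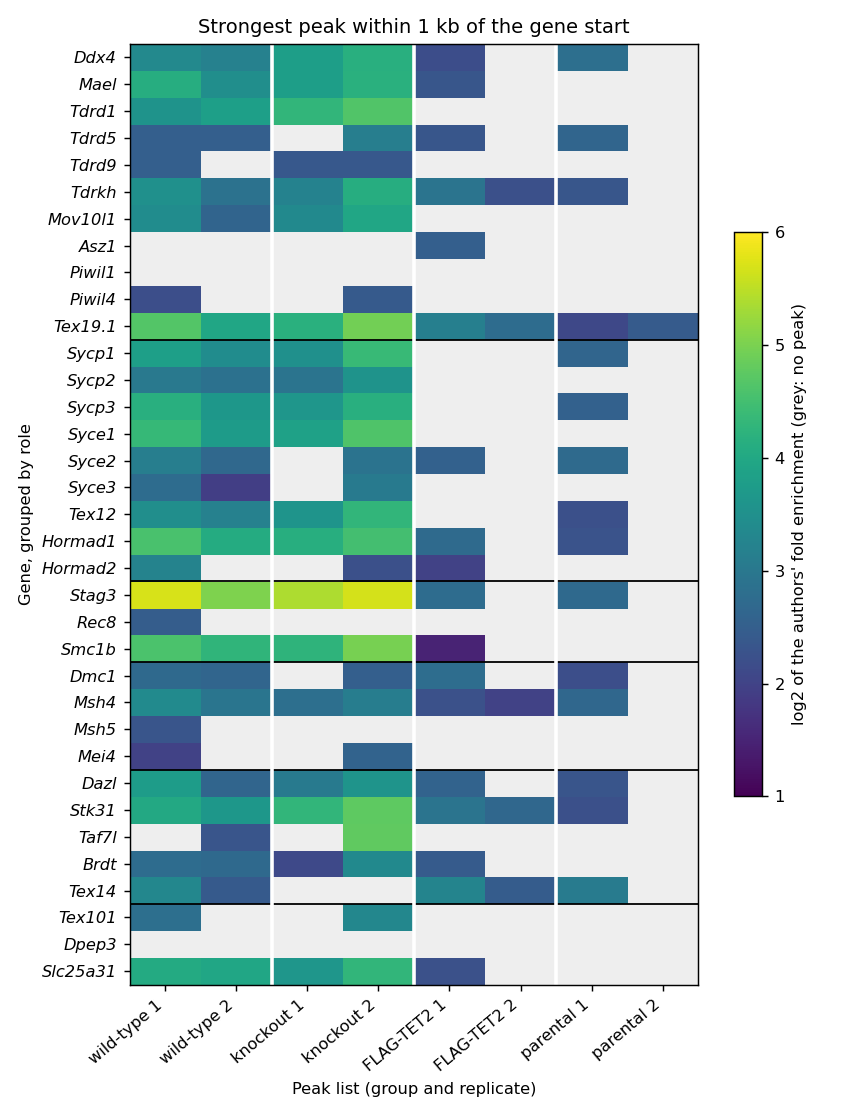
Log2 of the authors' fold enrichment (colour, from 1 to 6) of the strongest peak within 1 kb of the start for 35 genes (rows, in blocks by role) in the 8 lists (columns); grey means no peak. Filled cells concentrate in the 4 TET2-antibody columns, knockout included, with the Stag3 row brightest at folds of 52.2, 32.9, 41.7 and 51.5.

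The start peaks stood high within the TET2-antibody lists and low within the FLAG-resin lists. Each peak was ranked upward within its deposited list by the authors' −log10 q. The percentile is that rank as a percentage of the list's length, with tied peaks given their mean rank. The median percentile of the members' strongest start peaks was 88.7 and 89.9 in wild-type and 89.0 and 96.6 in knockout replicates. It was 33.6 and 23.3 in FLAG-TET2 replicates and 28.8 in parental replicate 1. With every peak at a member start counted, not the strongest alone, the medians were 86.8 and 83.6 in wild-type, 86.7 and 96.6 in knockout, 29.8 and 23.3 in FLAG-TET2, and 23.9 and 18.4 for the parental lists. Counted in that way, peaks at the start of any gene had medians between 30.8 and 53.9 over the 8 lists. In knockout replicate 1, 7 of the 20 genes had a start peak among the 100 leading peaks of the list, namely Stag3, Smc1b, Hormad1, Stk31, Tex19.1, Tdrd1 and Ddx4. The number was 6 in knockout replicate 2, 2 and 3 in wild-type replicates 1 and 2, and 0 in every FLAG-resin list. The 100 leading peaks are a larger part of this short list than of the others. Such a count was not made for all genes. No FLAG-resin list had a member start above the 90th percentile.

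**Figure D3:**
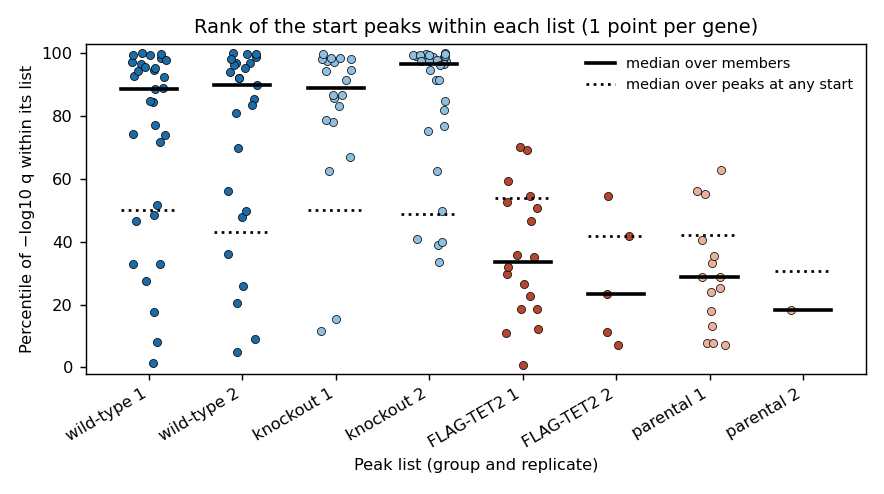
Percentile of −log10 q within its own list (y axis) for the strongest start peak of each gene (1 point per gene) in the 8 lists (x axis), with the members' median (solid) and the median of all peaks at any start (dotted). Most points of the TET2-antibody lists sit above the dotted line, with medians from 88.7 to 96.6, and the FLAG-resin medians from 18.4 to 33.6 sit below it.

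Start peaks lie within 1 kb of a start by definition, which bounds the distance of their summits. Summit distances were not computed for all genes, so the values below are a description of the members only. The median distance between the summit of the strongest start peak and the nearest start was 71 bp in knockout replicate 1 (20 genes) and 110 bp in knockout replicate 2 (29 genes). In wild-type replicates it was 88 and 108 bp. The summit was within 250 bp of the start at 17 of 20 and 25 of 29 genes in the knockout lists.

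Promoter sequence at the starts was read next, from the RefSeq promoter table (GRCm38.p6). For each gene 300 bases around its most upstream listed start, 250 before and 50 from it on, were searched on both strands for the E-box CACGTG and for the E2F-type motif GCGGGAA. The 2 motifs overlapped in no promoter. The bases shown lie before the start and outside the gene span, run 5′ to 3′ on the gene's strand, and carry motif matches in capitals. Hormad1 (+, chr3:95559427-95559676), Sycp3 (+, chr10:88459337-88459586), Slc25a31 (+, chr3:40708621-40708870), Sycp1 (-, chr3:102936101-102936350), Mov10l1 (+, chr15:88982744-88982890) and Stk31 (+, chr6:49395289-49395505) are shown as examples, chosen for an E-box in their promoters, of the 19 genes with a start peak in all 4 TET2-antibody lists. Dpep3 (-, chr8:105979420-105979669) is shown as a start with no peak in any list.
Hormad1: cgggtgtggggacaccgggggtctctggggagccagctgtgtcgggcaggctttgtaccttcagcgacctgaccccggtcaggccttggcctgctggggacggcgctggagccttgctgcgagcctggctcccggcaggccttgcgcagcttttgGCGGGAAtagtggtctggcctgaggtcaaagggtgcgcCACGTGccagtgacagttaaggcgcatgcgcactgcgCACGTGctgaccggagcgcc
Sycp3: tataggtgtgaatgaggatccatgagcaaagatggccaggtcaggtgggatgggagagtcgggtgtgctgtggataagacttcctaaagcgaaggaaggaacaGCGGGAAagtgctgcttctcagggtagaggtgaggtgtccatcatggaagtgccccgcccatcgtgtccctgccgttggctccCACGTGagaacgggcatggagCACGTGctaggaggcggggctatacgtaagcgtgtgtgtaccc
Slc25a31: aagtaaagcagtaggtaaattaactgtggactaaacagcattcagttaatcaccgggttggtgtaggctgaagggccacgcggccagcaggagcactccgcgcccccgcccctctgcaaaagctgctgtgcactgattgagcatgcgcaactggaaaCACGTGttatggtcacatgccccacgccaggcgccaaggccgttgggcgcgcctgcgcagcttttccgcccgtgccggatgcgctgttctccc
Sycp1: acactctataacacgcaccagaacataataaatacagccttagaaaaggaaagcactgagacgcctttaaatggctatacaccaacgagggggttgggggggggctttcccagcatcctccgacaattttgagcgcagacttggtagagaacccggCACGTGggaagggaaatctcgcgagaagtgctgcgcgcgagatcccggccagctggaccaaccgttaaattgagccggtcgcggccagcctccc
Mov10l1: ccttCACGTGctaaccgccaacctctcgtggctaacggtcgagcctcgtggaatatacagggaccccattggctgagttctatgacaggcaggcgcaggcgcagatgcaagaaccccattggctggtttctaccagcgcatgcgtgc
Stk31: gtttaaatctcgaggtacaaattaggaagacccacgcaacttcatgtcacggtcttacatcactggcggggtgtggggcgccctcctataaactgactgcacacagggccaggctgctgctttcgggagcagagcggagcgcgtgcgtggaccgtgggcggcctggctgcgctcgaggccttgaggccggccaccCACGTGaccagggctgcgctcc
Dpep3: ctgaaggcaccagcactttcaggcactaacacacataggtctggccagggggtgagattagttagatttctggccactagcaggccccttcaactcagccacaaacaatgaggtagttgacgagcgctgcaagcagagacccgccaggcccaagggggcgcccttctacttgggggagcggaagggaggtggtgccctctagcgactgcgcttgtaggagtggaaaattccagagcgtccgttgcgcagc

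Hormad1 and Sycp3 each have a pair of E-boxes and 1 E2F-type match in these bases, and the other 4 genes with antibody peaks 1 E-box each. The E2F-type match of Slc25a31 lies outside the bases shown. The Dpep3 promoter has neither motif and 12 CpG dinucleotides, against 15 to 29 in the other 6. This contrast is between picked examples and does not hold for all members. Piwil1, the other start with no peak in any list, has 18 CpG. Sycp2 and Msh4, with a start peak in all 4 TET2-antibody lists, have 10 and 6. Of the 35 promoters, 15 (42.9%) held an E-box, against 7.91% of all 17491 promoters, and 10 (28.6%) the E2F-type motif, against 6.01%. An E-box was present in 13 of the 20 members with a start peak in both knockout lists and in 2 of the other 15. The latter were Taf7l and Piwil1, which has a pair of E-boxes and no start peak. Both motifs were present in 6 members, Ddx4, Sycp3, Tex12, Hormad1, Stag3 and Slc25a31, each with a start peak in both knockout lists. A match is a run of letters and not a measured binding site.

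Over all genes, 14.2% of 1384 promoters with an E-box had a start peak in both knockout lists, 11.7% of 1052 with the E2F-type motif, 24.0% of 104 with both and 4.37% of 15159 with neither. Of the 16 members with neither motif, 6 had such a peak, namely Tdrkh, Tex19.1, Sycp2, Syce1, Msh4 and Dazl. The Msh4 peaks lay upstream of the bases read. The members' promoters had a median of 19 CpG dinucleotides, against 13 over all promoters. Promoters of all genes with 20 to 24 CpG had a start peak in both knockout lists in 8.37%, and 7 of the 8 members in that range had one. Between 15 and 19 CpG the share was 7.54%, with 2 of 11 members. Between 25 and 29 CpG it was 9.81%, with 5 of 6 members. At 5 to 9 CpG it was 1.76%, with 1 of 2 members, and at 10 to 14 CpG 5.34%, with 3 of 5. At 30 to 65 CpG it was 11.8%, with 2 of 3 members. The members' share thus did not rise steadily with the number of CpG.

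**Figure D4:**
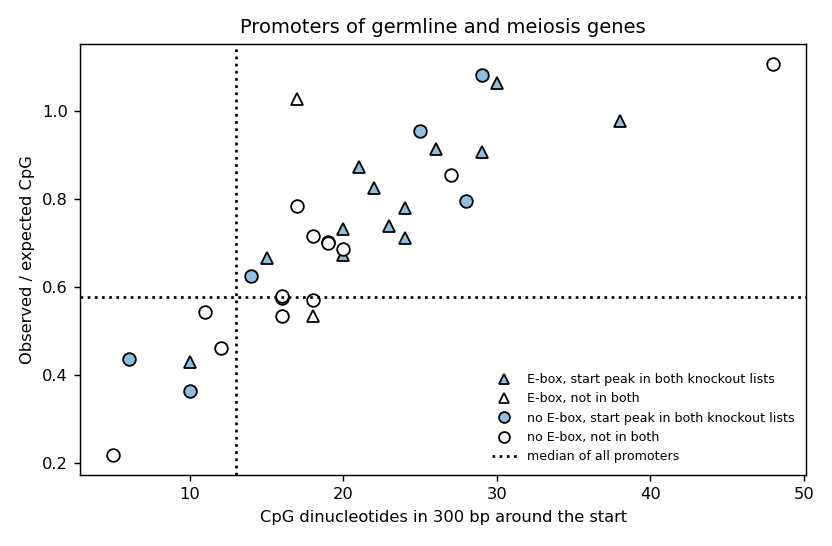
Number of CpG dinucleotides in the 300-base promoter (x axis) against the ratio of observed to expected CpG (y axis) for 35 genes. Triangles hold an E-box, blue symbols have a start peak in both knockout lists, and dotted lines are the medians of all promoters; 13 of the 15 triangles are blue, and most genes lie above the all-promoter median of 13 CpG.

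Meiotic cohesin holds sister chromatids together in meiosis. Of its 3 members, STAG3 and SMC1B are meiosis-specific cohesin subunits, and REC8 is the meiotic kleisin that closes the ring. Stag3 had the leading region of all members, at chr5:138279904-138280776. The authors' folds there were 52.2 and 32.9 in wild-type and 41.7 and 51.5 in knockout replicates 1 and 2. By −log10 q this was peak 1 and 4 of the wild-type lists and peak 2 and 3 of the knockout lists. FLAG-TET2 replicate 1 (6.85) and parental replicate 1 (6.58) also had a peak, and their second replicates had none. At the Smc1b start (chr15:85131555-85132343) the folds were 24.0 and 19.4 in wild-type, 19.2 and 31.6 in knockout and 2.84 in FLAG-TET2 replicate 1. Rec8 had a start peak in wild-type replicate 1 alone. Stag3 and Smc1b each share their start, within 1 kb, with another gene (Gpc2 and Ribc2), so these peaks cannot be given to 1 gene.

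Of 9 members of the synaptonemal complex and chromosome axis, the protein scaffold that pairs homologous chromosomes, 6 had a start peak in both knockout lists and all 9 in knockout replicate 2. HORMAD1 marks unpaired chromosome axes. At its gene's start (chr3:95559442-95559962) the folds were 23.8 and 16.9 in wild-type, 17.5 and 22.6 in knockout, 6.66 in FLAG-TET2 replicate 1 and 4.86 in parental replicate 1. Syce1, a central element protein, had wild-type folds of 20.4 and 13.3 and knockout folds of 14.6 and 24.5 at chr7:140787477-140788153. No FLAG-resin list had a peak in that region.

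SYCP1 forms the transverse filaments, and SYCP2 and SYCP3 the lateral elements. At the Sycp3 start (chr10:88459334-88459768) the folds were 17.9 and 12.5 in wild-type and 12.3 and 17.9 in knockout lists, with 5.87 in parental replicate 1. At the Sycp1 start (chr3:102935296-102936327) they were 14.1 and 10.8 in wild-type, 11.4 and 20.8 in knockout and 6.19 in parental replicate 1. Sycp2 (chr2:178406924-178407677) had lower wild-type folds of 8.07 and 7.32 and knockout folds of 7.54 and 11.9. Tex12, a central element protein, had 11.1 and 9.12 in wild-type and 12.05 and 19.5 in knockout lists. The remaining 3, Syce2, Syce3 and Hormad2, had a start peak in knockout replicate 2 and none in knockout replicate 1. Syce2 had wild-type folds of 8.85 and 6.44, with 7.50 in knockout replicate 2, 5.83 in FLAG-TET2 replicate 1 and 6.64 in parental replicate 1. Syce3 had wild-type folds of 6.84 and 3.83, with 8.36 in knockout replicate 2 and no FLAG-resin peak. Both encode central element proteins.

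The piRNA pathway silences transposons in germ cells. Of its 13 members 11 had a known start, and 7 of these had a start peak in both knockout lists. Tex19.1, which limits retrotransposons, was the member with a start peak in all 8 lists (chr11:121145744-121146570). Its folds were 25.2 and 15.5 in wild-type and 18.1 and 30.6 in knockout, 8.95 and 6.77 in FLAG-TET2, and 4.26 and 5.44 for the parental lists. Tdrd1, a Tudor-domain scaffold, had wild-type folds of 11.9 and 14.2 and knockout folds of 19.6 and 25.1 (chr19:56826047-56826556). Mov10l1, a piRNA helicase, had 10.8 and 6.14 in wild-type and 10.3 and 15.5 in knockout lists (chr15:88982536-88983292). Neither region had a FLAG-resin peak.

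Mael, a nuage protein, had at the start wild-type folds of 17.3 and 11.1, knockout folds of 14.0 and 18.0 and 5.04 in FLAG-TET2 replicate 1 (chr1:166238364-166239047). Ddx4, the germ cell RNA helicase VASA, had 10.2 and 9.12 in wild-type and 13.9 and 17.9 in knockout lists. In FLAG-TET2 and parental replicate 1 it had 4.53 and 7.10. Tdrkh, which anchors piRNA factors at mitochondria, had a start peak in every list but parental replicate 2, with folds of 11.3 and 7.41 (wild-type), 9.35 and 17.4 (knockout), 7.61 and 4.64 (FLAG-TET2) and 5.04 (parental). Tdrd9, a helicase, had start folds of 5.71 in wild-type replicate 1 and 5.21 in both knockout lists. Tdrd5 had wild-type start folds of 5.71 and 5.74, with 8.80 in knockout replicate 2, 5.04 in FLAG-TET2 replicate 1 and 6.19 in parental replicate 1.

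The PIWI proteins bind the piRNAs themselves. Piwil1 had no start peak in any list. Its 1 region (chr5:128733772-128734260) lay 1.81 kb outside the span. The FLAG-TET2 folds there were 30.4 and 20.2 and the parental folds 39.7 and 20.6. All 4 FLAG-resin lists and no TET2-antibody list held it. Another region of this kind lay inside the Ddx4 span (chr13:112606876-112607162), with FLAG-TET2 folds of 11.8 and 10.2 and parental folds of 23.1 and 15.1. A further one (chr11:4460433-4461121) lay 19.2 kb outside the Hormad2 span, with FLAG-TET2 folds of 13.3 and 6.90 and parental folds of 23.5 and 11.6. Piwil2 is not in the promoter table, and its region inside the span (chr14:70428864-70429667) had wild-type folds of 12.9 and 6.56 and knockout folds of 8.90 and 17.6. FLAG-TET2 replicate 1 had 8.36 there. Piwil4 had a start peak in wild-type replicate 1 (4.58) and knockout replicate 2 (5.35). Asz1, a germ cell ankyrin-repeat protein, had a start peak in FLAG-TET2 replicate 1 alone. Tdrd6, without a listed start, had a region inside its span (chr17:43629836-43630083) with a peak in wild-type replicate 2 (5.01) and in knockout replicate 2 (6.95).

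Among regulators of RNA, transcription and cell bridges, 3 of 5 had a start peak in both knockout lists. Stk31, which encodes a Tudor-domain protein with a kinase domain, had at the start wild-type folds of 16.2 and 12.6, knockout folds of 19.5 and 27.1, 7.56 and 6.34 in FLAG-TET2 and 4.64 in parental replicate 1 (chr6:49395258-49396014). Dazl, an RNA-binding regulator of translation, had 13.6 and 6.18 in wild-type, 8.18 and 11.99 in knockout, 6.01 in FLAG-TET2 replicate 1 and 5.02 in parental replicate 1 (chr17:50292806-50293877). Brdt, a testis bromodomain protein, had 6.82 and 6.56 in wild-type, 4.32 and 10.3 in knockout and 5.43 in FLAG-TET2 replicate 1. Taf7l, a germ cell relative of a TFIID subunit, had a region 0.899 kb past its start (chrX:134474971-134475591) with wild-type folds of 15.1 and 10.4 and knockout folds of 18.5 and 27.5. Its peaks in wild-type replicate 1 and knockout replicate 1 lay beyond 1 kb, so they are not counted as start peaks. In wild-type replicate 2 the peak with a fold of 10.4 also lay beyond 1 kb. The start peak counted in that list is another one, with a fold of 5.01.

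Of the 7 recombination genes 4 had a known start, and Msh4 alone had a start peak in both knockout lists. The summits of its peaks lay 931 to 1195 bp before the listed start. Within 250 bp of the start, Msh4 is not counted. Msh4, a crossover protein, had wild-type folds of 10.4 and 7.72, knockout folds of 7.13 and 8.69, 4.72 and 3.95 in FLAG-TET2 and 6.35 in parental replicate 1 (chr3:153905561-153906353). Dmc1, the meiotic strand exchange protein, had wild-type start folds of 6.55 and 6.22, with 5.75 in knockout replicate 2, 6.93 in FLAG-TET2 replicate 1 and 4.61 in parental replicate 1. Spo11 makes the meiotic double-strand breaks. Its region inside the span (chr2:172979801-172980268) had wild-type folds of 8.95 and 7.56 and knockout folds of 4.32 and 13.4 and no FLAG-resin peak in that region. Tex11, on the X chromosome and without a listed start, had a region at a span end (chrX:101059587-101059875) with wild-type folds of 6.46 and 5.01 and 7.84 in knockout replicate 2. Mei4, which acts in break formation, had a start peak in wild-type replicate 1 and knockout replicate 2, and Msh5, the partner of Msh4, in wild-type replicate 1 alone.

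Of the 3 membrane and metabolic genes, Slc25a31, a mitochondrial ADP/ATP carrier of germ cells, had at the start wild-type folds of 16.7 and 15.5, knockout folds of 12.3 and 19.6 and 4.73 in FLAG-TET2 replicate 1 (chr3:40708559-40709240). Tex101, a germ cell surface protein, had a start peak in wild-type replicate 1 (7.10) and knockout replicate 2 (10.0). Dpep3, a membrane dipeptidase, had none.

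Regions that met the rule for TET2 binding were counted beside the share over all genes, without a test. A common TET2 region, with a peak in all 4 target lists and in no control list, was given to 3 of the 40 genes (7.50%), Stk31, Tex15 and Dpep3, against 13.6% of all genes. Regions in both wild-type and neither knockout list were given to 4 genes (32.0% of all genes), these 3 and Tex14. Regions in both FLAG-TET2 and neither parental list were given to 5 (24.1% of all genes), these 4 and Tdrd5. Regions in all 4 target lists, whatever the controls held, were given to 7 (37.0% of all genes), namely Stk31, Tex15, Dpep3, Tex14, Tdrkh, Msh4 and Tex19.1. A control region, with a peak in at least 2 control lists, was given to 30 of the 40 genes (75.0%), against 41.7% of all genes. This count rests on the knockout lists: it was 18 of 40 without knockout replicate 1 (38.8% of all genes) and 15 of 40 without knockout replicate 2 (32.9% of all genes), close to the share over all genes.

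None of the 3 common regions lay at a start. The Stk31 region (chr6:49413025-49413402) lay inside the span, 17.4 kb past the start. Its wild-type folds were 17.6 and 9.91 and its FLAG-TET2 folds 23.2 and 13.6 in replicates 1 and 2, at percentiles of 97.6, 90.4, 96.5 and 91.4 of their lists. Both knockout lists and parental replicate 1 had a peak at the Stk31 start, and no control list had one in this region. The Tex15 region (chr8:33508066-33508329) lay 8.36 kb outside the span, with wild-type folds of 8.87 and 8.43 and FLAG-TET2 folds of 8.87 and 7.72. Tex15 is needed for repair of meiotic breaks and for piRNA-directed methylation. At the nearer end of its span another region (chr8:33516616-33517592) had peaks in the target lists (wild-type folds of 9.67 and 8.50, FLAG-TET2 folds of 10.1 and 6.83) and in 3 of the 4 control lists (7.39 in knockout replicate 2, parental folds of 11.4 and 4.58). The Dpep3 region (chr8:105971046-105971702) lay 1.82 kb beyond the far end of the gene, with wild-type folds of 7.77 and 6.88 and FLAG-TET2 folds of 10.5 and 6.87. With each peak cut to a window of 200 bp at its summit, Dpep3 was given no common region. With overlap of the span required, neither Dpep3 nor Tex15 was given one.

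Tex14, with a span of 150.8 kb, held 19 of the 106 regions. Wild-type replicates 1 and 2 had 13 and 3 peaks there, knockout replicates 1 and 4, FLAG-TET2 replicates 16 and 9 and parental replicates 9 and 4. Its start region (chr11:87404044-87405294), also within 1 kb of the Rad51c start, had wild-type folds of 9.98 and 5.31, FLAG-TET2 folds of 9.50 and 5.49 and 8.50 in parental replicate 1. The parental peak keeps it out of the common regions. The Tdrd5 region (chr1:156250798-156251409), 3.89 kb outside the span, had folds of 6.46 in wild-type replicate 1 and 8.74 and 6.06 in FLAG-TET2.

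**Figure D5:**
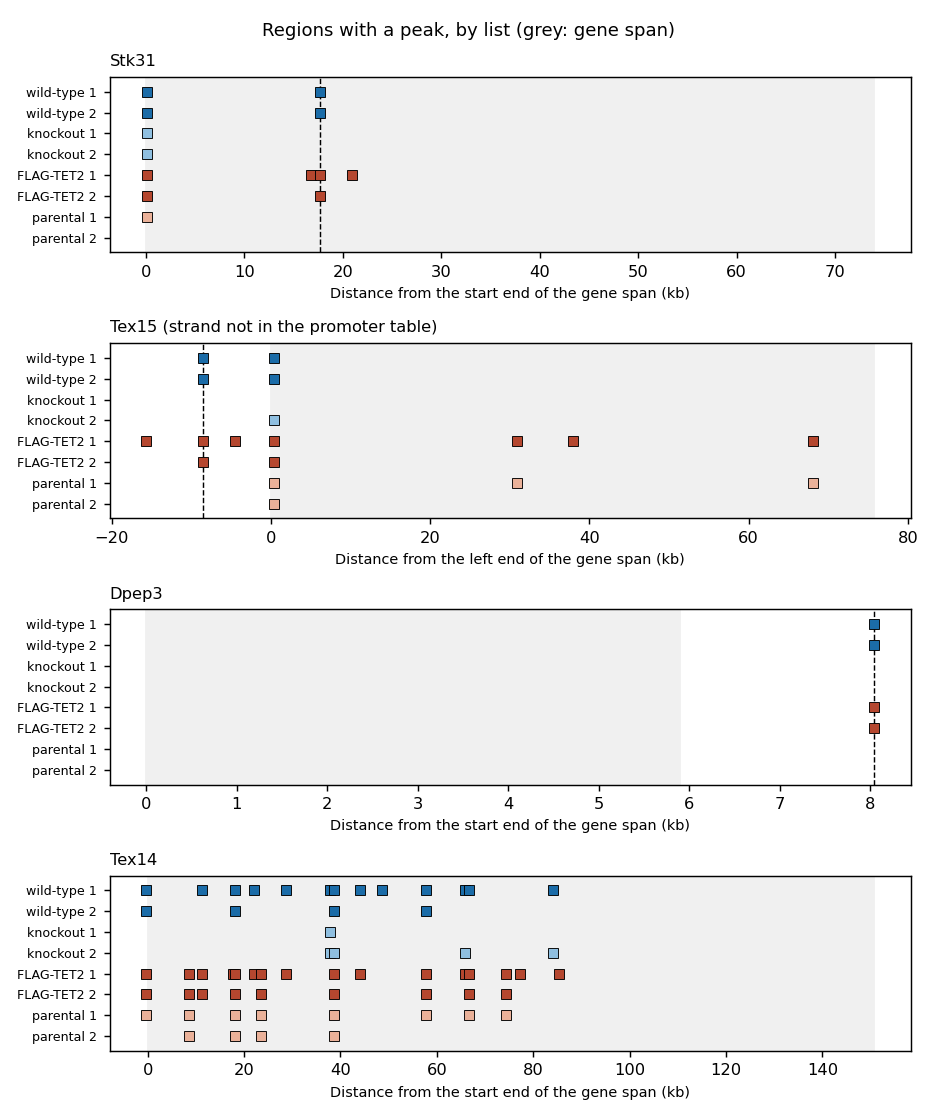
Regions with a peak (squares) in each of the 8 lists (rows) along Stk31, Tex15, Dpep3 and Tex14, by distance in kb from the start end of the gene span (for Tex15, from its left end); the span is grey and dashed lines mark common TET2 regions. At Stk31 the knockout and parental squares stand at the start alone, while the dashed region 17.4 kb past it has squares of the 4 target lists.

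Peak numbers per gene were compared between the target and the control lists by a two-sided exact permutation test of log2(peak number + 1), with labels permuted within each reagent (36 arrangements, n = 4 and 4 lists). Its smallest possible p is 0.0556, so no gene can pass 0.05 in this design. Among 17178 genes 0 passed, with 0 at an unadjusted p under 0.05 and a smallest adjusted p of 0.462. Of the 40 members, 25 had more peaks in target lists, 6 fewer and 9 as many, with a median log2 difference of 0.25. Over all genes 85.9% were higher and 6.81% lower, with a median of 0.58. The smallest p was reached by Stk31 and Dpep3, and by 2065 of the 17178 genes. Stk31 had 2 and 2 peaks in wild-type, 4 and 2 in FLAG-TET2, 1 and 1 in knockout and 1 and 0 in parental lists (log2 difference 1.02, exact permutation p = 0.0556, Benjamini-Hochberg adjusted p = 0.462). Dpep3 had 2 and 1 in wild-type, 1 and 1 in FLAG-TET2 and 0 in the control lists (log2 difference 1.15, with the same p-values).

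Among 40 other germline genes, listed apart from these, knockout start peaks were also frequent. Of 31 with a known start, 10 (32.3%) had a start peak in both knockout lists, against 5.47% of all genes. They were Meioc, Spata22, Hfm1, Rnf212, Tdrd7, Tdrd12, Ddx25, Henmt1, Pld6 and Ankrd31, named after their values were seen. Spata22, Rnf212, Henmt1 and Ankrd31 had a start peak in the 4 TET2-antibody lists and in no FLAG-resin list, a pattern of 0.520% of all genes. A common TET2 region was given to 7 of the 40 genes of that list (17.5%, against 13.6% of all genes), Nanos3, Ythdc2, Tdrd12, Rec114, Dppa3, Prdm14 and Tfap2c. The last 3 are active in ES cells or early germ cells. Of 22 genes listed as germline gene silencing factors, 9 (40.9%) were given a common region. They were Mga, Max, Rybp, Setdb1, Ehmt1, Ehmt2, Dnmt3a, Dnmt3b and Tet1. Tet1 is in that list although TET enzymes oxidise methylated cytosine and are not silencing factors in that sense. Of the 20 of these factors with a known start, both knockout lists had a start peak at 4 (20.0%, against 5.47% of all genes). Both FLAG-TET2 lists had one at 16 of these 20, against 38.6% of all genes. Both parental lists, which lack the tag, also had one at 11 of the 20, against 19.6% of all genes. The FLAG-TET2 count alone is therefore not a count of TET2 sites.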

How the data were processed

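TET2 and FLAG ChIP-seq peaks of mouse ES cells were analysed, 8 lists in 4 groups of 2. Per the submitters' processing notes, the build was mm10 and the tools included MACS2, Bowtie2, Trimmomatic, DESeq2 and DiffBind, with roles and versions not given in the sources used here. The authors called peaks library by library, per the peak names in the deposited lists. The deposited lists give a linear fold enrichment over the control track, −log10 p and q values (lowest −log10 q 2.01), a score (the −log10 q scaled and cut to a whole number) and the summit offset. These values, the authors' own, were used only to describe or rank peaks within a list. Read counts were not given, so depth is unknown, and list length mixes binding with depth.

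Peaks on the 21 assembled chromosomes were kept (2 to 34 per list left out), and positions are 1-based. Regions, genes and starts were assigned in Python 3.11.15 with pandas 2.3.3, tested on simulated data. All members are accounted for. By rule, those near a common or specific region, near a region of all 4 target lists, or with a start peak in both lists of a group were named with values. The members and lists were chosen with earlier results of these data known. The count of start peaks in both knockout lists was chosen after seeing the data. Promoter sequences were found for 35 members; Tdrd6, Piwil2, Spo11, Tex11 and Tex15 have no entry. Alternatives were a stricter q, summit windows, equal list lengths, other distances, other gene assignment, a replicate block and leaving out each list.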

Additional observations from a re-analysis of the deposited data

How the results depend on the processing

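The number of members with a start peak in both knockout lists (20) lay between 18 and 21 under other settings, chosen after seeing the data. They were a −log10 q of 5 or more, windows of 200 bp at the summits and lists cut to the 2259 leading peaks of each. Further settings were 250 bp or 5 kb from the start, members that share no start, and span ends for all 40 members. The share over all genes was 3.98% to 6.42% in these settings. Without each list in turn the number was 20 to 29. The 29 came without knockout replicate 1, where knockout replicate 2 alone was counted, against 22.7% of all genes. The number with a start peak in all 4 TET2-antibody lists (19) fell to 11 at equal list length (1.05% of all genes). It was 19 to 23 without each list, the 23 without knockout replicate 1 (17.1% of all genes). The number in both FLAG-TET2 lists (5) was 3 at a −log10 q of 5 or more (30.9% of all genes) and 0 at equal list length (1.48%). It was 3 at 250 bp (34.4%), 9 at 5 kb (43.8%) and 8 at span ends (37.1%). Without each list it was 5 to 18, the 18 without FLAG-TET2 replicate 2 (54.9% of all genes).

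Members near common, anti-TET2 specific and anti-FLAG specific regions numbered 3, 4 and 5. At equal list length they were 0, 1 and 0 (1.01%, 4.65% and 1.18% of all genes), with overlap of the span required 1, 2 and 2 (8.61%, 25.9% and 15.9%), and with every gene within 50 kb 10, 18 and 15 (29.5%, 56.1% and 47.5%). With windows of 200 bp at the summits they were 2, 6 and 6 (15.4%, 32.2% and 26.8%). Leaving out each list gave 3 to 5, 4 to 14 and 5 to 20. The extremes were anti-TET2 14 without wild-type replicate 2 (53.6% of all genes) and 9 without knockout replicate 2 (42.8%), and anti-FLAG 20 without FLAG-TET2 replicate 2 (52.8%) and 9 without parental replicate 1 (39.0%). Common regions reached 5 without wild-type replicate 2 (19.9%). Members near a region of all 4 target lists (7) were 0 at equal list length (1.09% of all genes), 24 with every gene within 50 kb (60.7%) and 7 to 19 without each list, the 19 without FLAG-TET2 replicate 2 (44.7%). Members near a control region (30) were 15 to 30 without each list, with 18 without knockout replicate 1 (38.8% of all genes) and 15 without knockout replicate 2 (32.9%). They were 23 at equal list length (12.7%) and 37 with every gene within 50 kb (67.1%). With the replicate number as a replicate block, members near common, anti-TET2 and anti-FLAG specific regions numbered 10, 21 and 22 (40.3%, 63.3% and 60.5% of all genes), since 1 pair of lists then suffices. The labels do not say that a number pairs samples. The paired test of peak number, whose smallest possible p is 0.125, called 0 members, and so did every other setting run; neither test can pass 0.05 on the 8 lists, so this says nothing about stability.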
